A study of Mus musculus with 2 samples.

Results

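Among dermal fibroblast-lineage cells of imiquimod-inflamed mouse skin, cell barcodes with at least 1 unique molecular identifier (UMI) of Cthrc1 were described across all other genes. Members were the barcodes of the imiquimod (IMQ) library with 150 to 5000 detected genes and 1 or more Cthrc1 UMI, with no limit on mitochondrial UMIs. They numbered 251 of 2308 IMQ barcodes in that gene range, of 5047 IMQ barcodes and 6462 barcodes in both libraries. Members were selected on their measured Cthrc1 and gene counts alone, so its level in these barcodes is a description. For comparison, 502 IMQ barcodes of the same gene range with 0 Cthrc1 UMIs were taken, the 2 nearest to each member in total UMIs without Cthrc1.

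The study sorted live, DAPI-negative, CD45-negative, tdTomato-positive cells from the dermis of 8-week C57BL/6 PdgfraDreER-tdTomato mice. The mice were either untreated (UT) or had received imiquimod, a Toll-like receptor 7 agonist that produces psoriasis-like inflammation, for 7 days. Both groups carried the same tamoxifen-inducible Dre reporter, so the cells were limited to those that expressed Pdgfra when labelled and to their descendants. There was 1 library per group, the number of mice behind each was not given in the sources used here, and no test between conditions was possible.

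Cthrc1 (collagen triple helix repeat containing 1) encodes a secreted glycoprotein found around injured arteries and in wounds, where fibroblasts that deposit collagen release it. It can bind Frizzled and Ror2 receptors and favours the planar cell polarity branch of Wnt signalling. In fibrotic lung and in the infarcted heart, Cthrc1 marks fibroblasts with high levels of collagen genes. The gene lies on chromosome 15 (39076932 to 39087121, plus strand, GRCm38), and no other annotated gene overlaps it.

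Libraries were shallow. The UT library held 1415 barcodes with a median of 694 UMIs and 359 genes, and the IMQ library held 5047 barcodes with a median of 355 UMIs and 140 genes. The members had a median of 668 UMIs (209 to 2525) and 243 genes, and the matched barcodes 667 UMIs and 241.5 genes. Mitochondrial genes took a median of 5.34% of a member's UMIs and 7.05% of a matched barcode's, and ribosomal protein genes 17.2% and 19.8% of the summed UMIs. The ribosomal RNA-related transcript Gm42418 took 15.9% and 15.3% of the summed UMIs of these sets but 1.44% in UT barcodes of matched depth. Across the libraries, 1 barcode sequence was shared. It was neither a member nor a matched IMQ barcode, but it was in the set of UT barcodes of matched depth.

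Fibroblast markers were present in the members and the defining markers of other cell types were at or near 0. Every member held at least 3 UMIs of the 7 general fibroblast markers, as did 98.2% of matched barcodes and 94.4% of UT barcodes of matched depth. The median was 82 UMIs in members, 64.5 in matched barcodes and 41 in UT barcodes. Collagen I chain Col1a1 was detected in 98.0% of members and decorin (Dcn) in 249 of 251. Pdgfra, the gene behind the reporter, was detected in 3 of 251 members and 9 of 502 matched barcodes, and Pdgfrb in 4 and 12. No member held 3 or more UMIs of keratinocyte, T cell, endothelial, mural, Schwann and melanocyte, or skeletal muscle markers. For class II myeloid markers there was 1 such member and for adipocyte markers 1. At least 1 UMI of the Schwann and melanocyte list was seen in 8.37% of members (interval 5.25 to 12.5) and 4.78% of matched barcodes (interval 3.09 to 7.03). All 24 UMIs in the members and 27 of 29 in the matched barcodes were of Mlana. For the adipocyte list these shares were 10.8% (interval 7.21 to 15.3) and 6.57%, mostly through Lpl, which fibroblasts can also express. The mural list gave 5.58% and 3.59%. The keratinocyte, T cell, endothelial and skeletal muscle lists gave 3, 0, 2 and 1 members with any UMI.

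Cthrc1 was detected in 10.9% of IMQ barcodes in the gene range (interval 9.63 to 12.2, exact binomial) and in 6 of 1403 UT barcodes (0.428%, interval 0.157 to 0.928). Intervals here and below are exact, at 95%, and cover counting error only. The 251 members held 368 Cthrc1 UMIs, which made 241 UMIs per 1000000 (CPM, interval 217 to 267) over all IMQ barcodes in the range, against 7 UMIs and 5.12 CPM (interval 2.06 to 10.5) in UT. Of the members, 178 held 1 Cthrc1 UMI, 46 held 2, 17 held 3, 6 held 4, 1 held 5 and 3 held 6. At most 10% mitochondrial UMIs left 180 members of 1643 barcodes, at 242 CPM.

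Within the gene range, detection followed depth whereas the level did not. The shallower IMQ barcodes under 150 genes had a lower level, 124 CPM (interval 101 to 152). From the shallowest to the deepest of 4 nearly equal groups of IMQ barcodes the share with a Cthrc1 UMI was 7.53%, 8.79%, 9.84% and 17.3%, and the Cthrc1 level 272, 235, 221 and 245 CPM with overlapping intervals. In UT the same depth ranges held 0 of 171, 0 of 305, 1 of 341 and 5 of 586 barcodes with Cthrc1. In the first and second of these, a count of 0 allows a share of up to 1.75% and 0.984% by a limit of 3 counts of the total, and the exact upper bounds are 2.13% and 1.20%. When every barcode was thinned to 300 UMIs, the share was 6.72% in IMQ, with 104 shallower barcodes left out, and 0.214% in UT, with none left out. Of IMQ barcodes with 3 or more class II myeloid UMIs, a type that should lack the gene, 1 of 14 (7.14%, interval 0.181 to 33.9, median 464 UMIs) held a Cthrc1 UMI, too few to set a background. A barcode with 0 Cthrc1 UMIs is thus not shown to lack the transcript. Nor are the 178 members with 1 Cthrc1 UMI each shown to express it, since no background was set. At the lower edge of the rule, 16 of 208 barcodes with 150 to 159 genes and 9 of 229 with 140 to 149 genes were Cthrc1-positive.

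**Figure D1:**
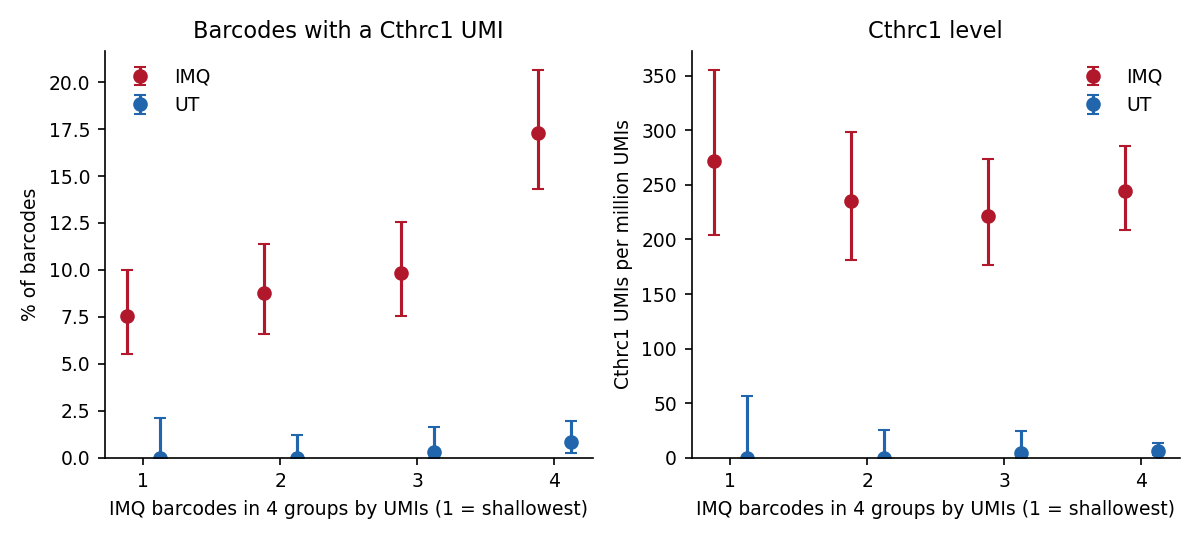
Share of barcodes with a Cthrc1 UMI (left, %) and summed Cthrc1 level (right, CPM) for IMQ (red) and UT (blue) barcodes of 150 to 5000 genes, in 4 groups of IMQ barcodes by UMIs, with exact 95% intervals. The IMQ share goes from 7.53% to 17.3% with depth while the level stays between 221 and 272 CPM, and UT stays at or below 0.853% of barcodes.

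Against the matched Cthrc1-negative barcodes, few genes were far apart. Of 1762 genes with at least 20 UMIs in both sets together, 3.69% were at least 2-fold higher in the members and 7.26% at least 2-fold lower, and the intervals of 6.92% lay above 0 and of 9.08% below 0 on the log2 scale. The median log2 ratio over all of them was -0.03. The members differed from the matched barcodes in having more RNA of fibrillar collagens and of matrix proteases and inhibitors, less RNA of elastic fibre and microfibril proteins, and fewer UMIs of class II myeloid genes, most of which lay in few matched barcodes.

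The RNA of the fibrillar collagens, the rope-like collagens of the dermis, took a larger share of the members' UMIs. Over the 7 listed genes it was 12.1% of the members' UMIs, 10.4% of those of matched barcodes and 5.41% of those of UT barcodes of matched depth. Per barcode the median was 10.6% in members (10th to 90th percentile 2.67 to 23.2), 7.37% in matched barcodes (1.38 to 19.3) and 3.31% in UT (0.282 to 11.7), so the sets overlapped widely. Of 5 genes measured, 3 had an interval above 0. Col3a1 differed by 0.25 (interval 0.20 to 0.31) on the log2 scale, Col1a1 by 0.22 (interval 0.18 to 0.25) and Col1a2 by 0.20 (interval 0.16 to 0.24). The collagen V chains, which control fibril thickness, did not follow: Col5a1 stood at -0.18 (interval -0.58 to 0.22) and Col5a2 at -0.14 (interval -0.48 to 0.19). The list's median was 0.20, beside -0.03 over all genes. Among 8 measured collagens outside that list, the median was -0.32 and the interval of 1, Col6a3, ended just below 0 (log2 ratio -0.60).

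**Figure D2:**
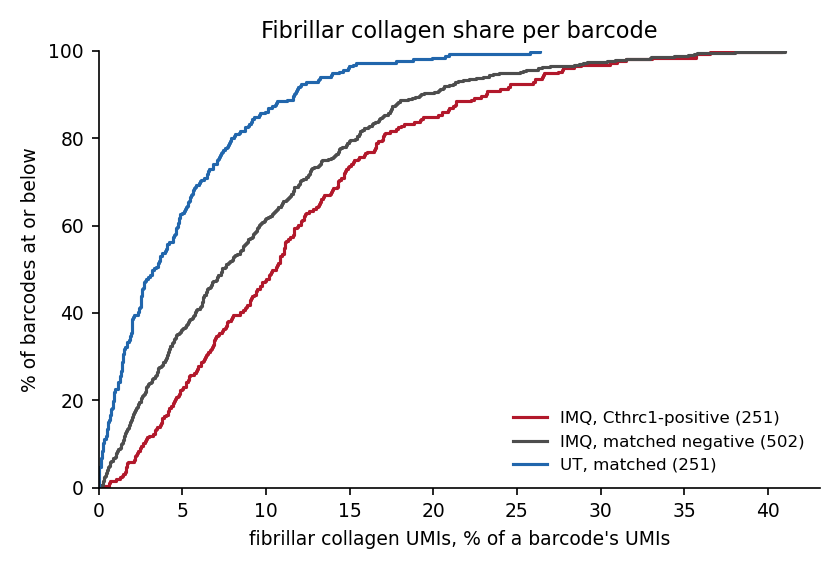
Cumulative share of barcodes (y axis, %) by the share of their UMIs from 7 fibrillar collagen genes (x axis, %), for members (red), matched Cthrc1-negative IMQ barcodes (grey) and UT barcodes of matched depth (blue). Medians are 10.6%, 7.37% and 3.31%, and the 3 curves overlap over most of their range.

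Enzymes that fold, process and cross-link collagen had a median of 0.26 over 14 measured genes, with 4 intervals above 0 and none below. Pcolce, which speeds removal of the procollagen C-propeptide, was detected in 59.8% of members (interval 53.4 to 65.9) and 43.6% of matched barcodes (interval 39.2 to 48.1). Its level was 1499 CPM in the members and 929 CPM in the matched barcodes, a log2 ratio of 0.69 (interval 0.46 to 0.92). The prolyl 4-hydroxylase subunit P4ha2 stood at 1.08 (interval 0.37 to 1.79), with 37 UMIs in 30 members and 35 UMIs in 31 matched barcodes. Loxl1, a lysyl oxidase that cross-links elastin, stood at 1.22 (interval 0.24 to 2.21), and the collagen chaperone Serpinh1 at 0.26 (interval 0.05 to 0.46). Lox and Loxl2 were at 0.17 and -0.11 with intervals across 0. Over 18 genes of the general secretory machinery of the endoplasmic reticulum the median was 0.18, and the interval of 1, the retrieval receptor Kdelr2 (0.55), lay above 0.

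Small leucine-rich proteoglycans, which bind collagen fibrils and set their spacing, split by gene. Osteomodulin (Omd) was at 151 CPM in the members and 56.7 CPM in the matched barcodes, and was detected in 23 members and 16 matched barcodes. Osteoglycin (Ogn) was at 388 CPM in the members and 243 CPM in the matched barcodes and asporin (Aspn) at 1003 CPM in the members and 772 CPM in the matched barcodes. The log2 ratios were 1.41 (interval 0.55 to 2.30), 0.68 (interval 0.21 to 1.14) and 0.38 (interval 0.10 to 0.65). These 3 genes lie next to each other on chromosome 13 (49544443 to 49624501, GRCm38), within the span of Cenpp on the opposite strand, which had 0 UMIs in both sets. Their neighbour Ecm2 stood at 0.28 (interval -0.24 to 0.78). Lumican (Lum) was at 0.22 (interval 0.10 to 0.34) and decorin at 0.01 (interval -0.05 to 0.07). Biglycan (Bgn) was lower in the members, at 1176 CPM in the members and 1766 CPM in the matched barcodes, a log2 ratio of -0.59 (interval -0.81 to -0.36). Fibromodulin (Fmod) had 1 UMI in 1 member and 40 UMIs in 2 matched barcodes, and 39 of those 40 UMIs came from 1 matched barcode. The list's median was 0.12.

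Matricellular proteins, which sit in the matrix and signal to cells, had a median of 0.30 over 6 measured genes, with 3 intervals above 0 and none below. Periostin (Postn) had 17 UMIs in 12 members and 9 UMIs in 6 matched barcodes, a log2 ratio of 1.92 (interval 0.67 to 3.26). Sparc, a collagen-binding protein, took 5.79% of the members' UMIs, 4.74% of those of matched barcodes and 2.34% of those of UT barcodes, and Tgfbi stood at 0.30 (interval 0.11 to 0.49). Fibronectin (Fn1) was at 0.41 (interval -0.12 to 0.94) and thrombospondin 2 (Thbs2) at 0.07 (interval -0.77 to 0.87). Ecm1 was below 0, at -0.66 (interval -1.49 to 0.10) with all barcodes and -0.88 (interval -1.81 to -0.03) without the top barcode of each set. Ctgf and Cyr61, with too few UMIs for the measured set, had 2 UMIs in 2 members and 10 UMIs in 8 matched barcodes, and 3 UMIs in 3 members and 16 UMIs in 11 matched barcodes. Tenascin C (Tnc), the gene the study centred on, had 0 UMIs in the members and 1 UMI in the matched barcodes. A count of 0 in 251 allows a share of members with a Tnc UMI of up to 1.20% by the limit of 3 counts, with an exact upper bound of 1.46%, and sets no limit on members expressing it. Osteopontin (Spp1) had 10 UMIs in the members, but they came from 1 barcode.

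Matrix proteases and their inhibitors had the highest median of the matrix lists, 0.72 over 7 measured genes, with 6 intervals above 0 and 2 genes at least 2-fold higher. The membrane-anchored Mmp23 was at 307 CPM in the members and 151 CPM in the matched barcodes, a log2 ratio of 1.02 (interval 0.47 to 1.58). The stromelysin Mmp3 stood at 0.72 (interval 0.37 to 1.08), the collagenase activator Mmp14 at 0.92 (interval 0.22 to 1.62) and the gelatinase Mmp2 at 0.42 (interval 0.20 to 0.64). Inhibitors were higher too: Timp1 stood at 1.48 (interval 0.21 to 2.81) on 14 and 10 UMIs and Timp2 at 0.36 (interval 0.21 to 0.50). Timp3 was at -0.03 (interval -0.71 to 0.63).

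Elastic fibre and microfibril genes went the other way as a list, with a median of -0.75 over 9 measured genes, 5 intervals below 0 and 1 above, and 4 genes at least 2-fold lower. Mfap4, a microfibril-associated protein that binds collagen and elastin, was detected in 30.3% of members (interval 24.7 to 36.4) and 46.6% of matched barcodes (interval 42.2 to 51.1). Its level was 858 CPM in the members and 1728 CPM in the matched barcodes, a log2 ratio of -1.01 (interval -1.27 to -0.76). It was lower in the shallower members and their matched barcodes (-1.51) and in the deeper ones (-0.83). The elastin-binding fibulin Fbln5 had 3 UMIs in 3 members and 26 UMIs in 24 matched barcodes, Efemp2 (fibulin-4) 3 UMIs in 3 members and 22 UMIs in 21 matched barcodes, and fibrillin-1 (Fbn1) 7 UMIs in 5 members and 37 UMIs in 32 matched barcodes. Their log2 ratios were -2.12 (interval -4.49 to -0.41), -1.88 (interval -4.26 to -0.14) and -1.40 (interval -2.81 to -0.22). Fibulin-1 (Fbln1) stood at -0.63 (interval -1.25 to -0.04), and elastin itself (Eln) at -0.75 (interval -1.72 to 0.14). Mfap2, another microfibril protein, was the exception, with 755 CPM in the members and 459 CPM in the matched barcodes and a log2 ratio of 0.72 (interval 0.38 to 1.05). With at most 10% mitochondrial UMIs, 7 of these genes were measured and their median was 0.06, since Eln moved to 0.06 and Fbln5 and Efemp2 left the measured set, while Mfap4 stayed at -1.08 (interval -1.40 to -0.77) and Fbn1 at -1.94 (interval -4.32 to -0.21).

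**Figure D3:**
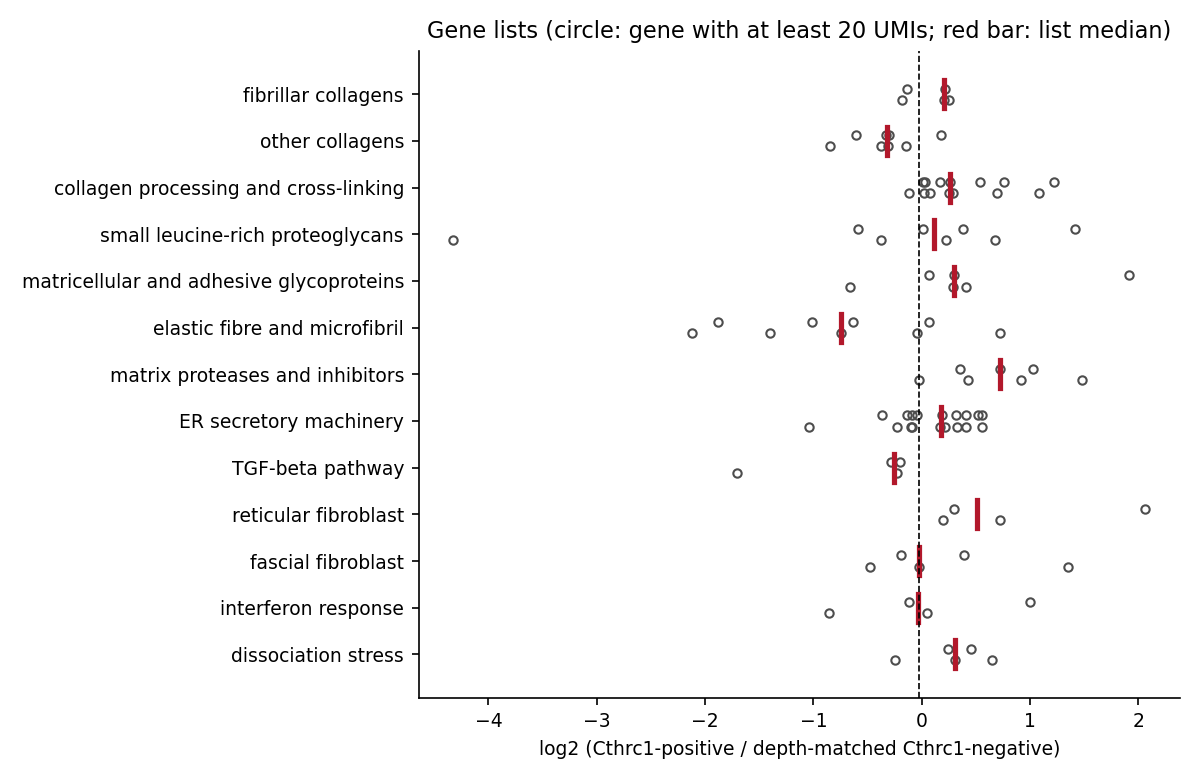
Log2 ratio of summed UMIs per total, members over matched Cthrc1-negative IMQ barcodes (x axis), for genes with at least 20 UMIs (circles) of 13 gene lists (y axis), with the general fibroblast (median 0.22) and class II myeloid (-2.32) lists not drawn. Red bars are list medians and the dashed line is the median of all 1762 genes (-0.03). Of the lists drawn, matrix proteases and inhibitors sit highest at 0.72 and elastic fibre and microfibril genes lowest at -0.75.

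By the ranking set for single genes, on the bound of the interval nearest 0, the 15 highest in the members were C7, Mgp, Nkain4, Rex1bd, Prss23, Postn, Gpx3, Omd, Sfrp1, Pdgfrl, Id3, Mmp23, Cldn10, H2afy and Mlf2. Pdgfrl, a secreted protein resembling a platelet-derived growth factor receptor, was detected in 45.4% of members (interval 39.1 to 51.8) and 32.7% of matched barcodes (interval 28.6 to 37.0). Its level was 1170.4 CPM in the members and 669.6 CPM in the matched barcodes, a log2 ratio of 0.81 (interval 0.54 to 1.07). Gpx3, the extracellular glutathione peroxidase, was detected in 57.0% of members (interval 50.6 to 63.2) and 37.5% of matched barcodes (interval 33.2 to 41.8). Its level was 1839 CPM in the members and 1058 CPM in the matched barcodes, a log2 ratio of 0.80 (interval 0.58 to 1.01). Both were seen in many barcodes, and their sets overlapped. The complement component C7 had 35 UMIs in 27 members and 19 UMIs in 16 matched barcodes, a log2 ratio of 1.88 (interval 1.03 to 2.77). The serine protease Prss23 had 39 UMIs in 25 members and 27 UMIs in 23 matched barcodes, the claudin Cldn10 83 UMIs in 60 members and 88 UMIs in 69 matched barcodes, and the transcriptional inhibitor Id3 61 UMIs in 35 members and 59 UMIs in 40 matched barcodes. Their log2 ratios were 1.53 (interval 0.78 to 2.29), 0.91 (interval 0.46 to 1.36) and 1.05 (interval 0.51 to 1.59). Nkain4 had 24 UMIs in 22 members and 12 UMIs in 11 matched barcodes, Rex1bd stood at 2.17 (interval 0.89 to 3.58), and the histone variant gene H2afy and Mlf2, on 20 UMIs each, at 1.89 (interval 0.46 to 3.46) and 1.89 (interval 0.46 to 3.46). Sfrp1, a secreted Wnt antagonist, stood at 1.52 (interval 0.54 to 2.54). For matrix Gla protein (Mgp), 17 of 23 UMIs in the members came from 1 barcode, without which the log2 ratio was 0.12. With at most 10% mitochondrial UMIs all 15 stayed above 0, and the intervals of 14 did. The 180 members under that limit are among the 251 that set the ranking, so this repeat is not independent.

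The 10 lowest by the same ranking were Coch, Cxcl9, H2-Aa, Ccl8, Fmod, C1qa, H2-Eb1, Mdh1, Cd74 and Ccl19, and several of them rested on single barcodes. Coch, which encodes cochlin and marks the fibroblast subset the study described, had 1 UMI in 1 member and 76 UMIs in 8 matched barcodes, of which 68 came from 1 matched barcode. That barcode (2277 UMIs, 743 genes) also held the 39 Fmod UMIs, 21 UMIs of the Wnt antagonist Dkk2 and 36 of Aspn. Without each gene's top barcode in each set, Coch had 0 UMIs left in the members and 8 in the matched barcodes, and too few Fmod UMIs were left for a ratio. The chemokine Ccl19 was spread more widely, with 12 UMIs in 9 members and 91 UMIs in 62 matched barcodes, a log2 ratio of -1.92 (interval -2.93 to -1.05). The chemokine gene Cxcl9 had no UMI in the members and 37 UMIs in 4 matched barcodes. Ccl8 had 1 UMI in 1 member and 45 UMIs in 9 matched barcodes. Of these, 21 Cxcl9 UMIs and 21 Ccl8 UMIs were in 1 matched barcode each. The class II antigen presentation genes Cd74, H2-Aa and H2-Eb1 and the complement gene C1qa came from 10, 7, 7 and 6 matched barcodes. Over the class II myeloid list, 1 of 251 members and 7 of 502 matched barcodes held 3 or more UMIs, and the summed UMIs were 20 and 196. The list's median was -2.32 over 5 measured genes, in cells sorted as CD45-negative. When barcodes with 3 or more UMIs of any other cell type's list were left out of both sets, too few class II UMIs remained for a median. Ccl19 then stood at -1.94 (interval -2.94 to -1.07), and Ccl8, on 12 UMIs, had an interval across 0. Matching on mitochondrial share as well as UMIs moved Cd74 to 0.12. Mdh1, a cytosolic dehydrogenase, had no UMI in the members and 21 UMIs in 20 matched barcodes, at least 3.50-fold lower by a floor of 3 counts over the members.

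Since single barcodes set several of these ranks, a further ranking was chosen after the values were seen. It took genes with UMIs in at least 20 barcodes of both sets (1518 genes) and left out, gene by gene, the member and the matched barcode with the most UMIs. The intervals of 87 such genes lay above 0 and of 92 below. Of the 15 highest, 10 were among the 15 above, and Ogn, Pcolce, Ccdc80, Igfbp3 and Mydgf took the other places. Ccdc80, a matrix protein that can bind other matrix components, was at 1187 CPM in the members and 732 CPM in the matched barcodes, a log2 ratio of 0.70 (interval 0.43 to 0.96) with all barcodes. The insulin-like growth factor binding protein Igfbp3 had 45 UMIs in 34 members and 45 UMIs in 36 matched barcodes, a log2 ratio of 1.00 (interval 0.37 to 1.63), and the secreted growth factor Mydgf 22 UMIs in 20 members and 17 UMIs in 15 matched barcodes, a log2 ratio of 1.37 (interval 0.39 to 2.37).

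Of the 15 lowest in that ranking, Ccl19 and Mdh1 were among the 10 above, and the others included signalling and matrix genes seen in few members. The cartilage intermediate layer protein Cilp had 14 UMIs in 7 members and 79 UMIs in 41 matched barcodes, a log2 ratio of -2.36 (interval -3.73 to -1.25) without the top barcodes. Tgfbr3, the co-receptor betaglycan, had 8 UMIs in 7 members and 52 UMIs in 39 matched barcodes, and a log2 ratio of -2.03 (interval -3.55 to -0.81) without the top barcodes. Rspo1, a Wnt agonist and a marker on the papillary fibroblast list, had 4 UMIs in 4 members and 33 UMIs in 30 matched barcodes, and a log2 ratio of -2.37 (interval -4.72 to -0.69) without the top barcodes. Enpp2, which makes lysophosphatidic acid, had 6 UMIs in 5 members and 39 UMIs in 32 matched barcodes, and a log2 ratio of -2.17 (interval -4.12 to -0.69) without the top barcodes. S100a4, a calcium-binding protein, was at 324 CPM in the members and 616 CPM in the matched barcodes, a log2 ratio of -0.93 (interval -1.36 to -0.51), and was detected in 43 members and 132 matched barcodes. The retinoic acid hydroxylase Cyp26b1 stood at -1.62 (interval -2.91 to -0.53). Atp9a, AW112010, Psmb5, Deptor and Fbln5 held 2 or 3 UMIs each in the members and 21 to 29 in the matched barcodes. With at most 10% mitochondrial UMIs the 15 higher genes kept their direction and side of 0, and the 15 lower genes kept their direction, with 10 intervals below 0. Those members were again part of the ranked ones, so this repeat is not independent either. S100a4 overlaps the annotated gene Gm42674 on its strand, Pcolce Fbxo24 and Mdh1 Gm22990, and Mfap4 and Efemp2 lie across genes on the other strand. Whether the counting used strand was not given in the sources used here.

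**Figure D4:**
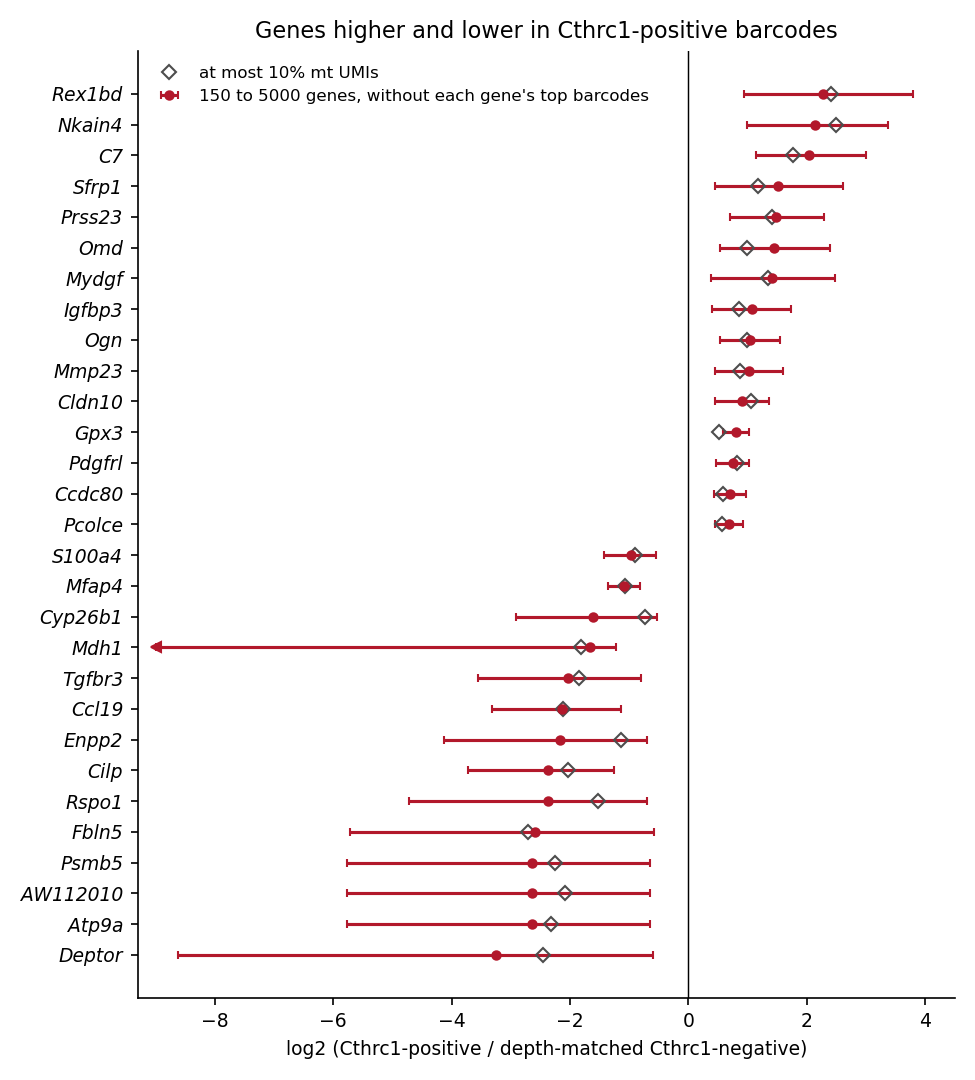
Log2 ratio (x axis) of 15 higher and 14 lower genes (y axis) ranked without their top barcodes, members over matched Cthrc1-negative IMQ barcodes, with exact 95% intervals in red (an arrow marks an interval without lower end) and the value with at most 10% mitochondrial UMIs as open diamonds. All 29 diamonds lie on the same side of 0 as the red points, but they rest on members that were also ranked.

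Markers of named dermal fibroblast layers differed by list, on few measured genes. The 4 reticular genes were above 0, 2 with intervals above 0, the 2 papillary genes were below, 1 with its interval below, and the fascial genes were mixed. Of the reticular list 4 genes were measured, with a median of 0.51: Mmp3 and Mgp as above, Clec11a at 0.30 (interval -0.22 to 0.81) and Ly6a at 0.20 (interval -0.07 to 0.46). Without each gene's top barcodes, 1 reticular interval lay above 0, and with at most 10% mitochondrial UMIs 2 did. Of the papillary list 2 were measured, Rspo1 as above and Ntn1 at -0.81 (interval -2.41 to 0.55). With at most 10% mitochondrial UMIs, 1 papillary gene was measured, at -1.53, and its interval was not below 0. For the fascial list the median was -0.03 over 5 genes, with Ly6c1 at 0.39 (interval 0.13 to 0.64), Anxa3 at 1.35 (interval 0.10 to 2.63), Gsn at -0.19 (interval -0.30 to -0.08), Cd34 at -0.03 (interval -0.33 to 0.27) and the universal fibroblast marker Pi16 at -0.48 (interval -1.23 to 0.23). With at most 10% mitochondrial UMIs, 4 fascial genes were measured and the highest stood at 0.16. None of their intervals then lay above 0, and 2 lay below. No gene of the dermal papilla list and 1 of the dermal sheath list, Abi3bp (-0.40), was measured.

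Contractile genes of myofibroblasts were hardly detected. Acta2 and Tagln had no UMI in the members and 5 and 8 in the matched barcodes, and the only contractile gene measured, Cald1, stood at 0.20 (interval -0.82 to 1.18). In the TGF-beta pathway 4 genes were measured, with a median of -0.25. Tgfbr3 was the only one at least 2-fold apart, and the type II receptor Tgfbr2 stood at -0.22 (interval -0.83 to 0.36). Of the Wnt receptor and planar polarity list, through which Cthrc1 can act, only the downstream GTPases Rhoa and Rac1 had enough UMIs, at -0.02 (interval -0.54 to 0.49) and 0.29 (interval -0.55 to 1.09). Interferon response genes had a median of -0.03 over 4 genes, none with an interval off 0. No gene of the IL-17 and NF-kB list had 20 UMIs, with 7 UMIs in the members and 20 in the matched barcodes over 14 genes. Early response genes that tissue dissociation can raise had a median of 0.31 over 5 genes, and all 5 intervals spanned 0. The only proliferation gene measured, Tubb5, stood at -0.74 (interval -1.68 to 0.12).

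Among the members, genes differed in how they went with the number of Cthrc1 UMIs. Pdgfrl was at 1011 CPM (interval 842 to 1203) in the 178 members with 1 Cthrc1 UMI, 1219.8 CPM (interval 871 to 1661) in the 46 with 2 and 1826 CPM (interval 1359.5 to 2401) in the 27 with 3 or more. Mfap4 was at 1011 CPM (interval 842 to 1203), 579 CPM (interval 349 to 905) and 501 CPM (interval 274 to 841). S100a4 was at 337 CPM (interval 243 to 455), 488 CPM (interval 279 to 792) and 71.6 CPM (interval 8.67 to 259), the last on 2 UMIs. Pdgfrl was thus highest and Mfap4 lowest in members with 3 or more Cthrc1 UMIs, and both intervals stopped short of those of members with 1, for Mfap4 by a small margin. Col1a1 was also highest with 3 or more, at 55517 CPM (interval 54217 to 56841), 57973 CPM (interval 55396 to 60639) and 60005 CPM (interval 57166 to 62948). Sparc was highest in members with 2, at 55806 CPM (interval 54502 to 57133), 65414 CPM (interval 62675 to 68242) and 58644 CPM (interval 55839 to 61555). For decorin the levels were 16851, 19700.5 and 19154 CPM, and for Igfbp3 209, 305 and 322 CPM, with overlapping intervals between members with 1 and with 3 or more. Pcolce showed no such order, at 1539.9, 1250.3 and 1611 CPM, and Gpx3 was at 1837, 1403 and 2363 CPM. The members with 3 or more Cthrc1 UMIs were deeper (median 998 UMIs, against 658.5 and 636.5), and the part of depth in these values was not tested. The intervals take the UMIs of 1 barcode as independent and leave out the spread between barcodes. Among members with 3 or more, the fibrillar collagen share of a barcode ran from 0.705% to 27.4%. Gaps between intervals thus do not show a difference between these groups of members. Set against their own matched barcodes, members with 2 or more Cthrc1 UMIs stood at -1.52 for Mfap4 and 1.01 for Pdgfrl, and members with 1 at -0.84 and 0.67.

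The members were also set beside 251 UT barcodes of matched depth with 0 Cthrc1 UMIs. Of 1674 genes, 4.36% were at least 2-fold higher in the members and 38.6% at least 2-fold lower, with the intervals of 5.56% above 0 and of 46.2% below 0, and the median log2 ratio was -0.78. Gm42418 took a higher share in the IMQ library, as given above, and the UT barcodes held more genes at matched depth (median 357, against 243 in the members). What set the median was not tested. Values that follow are log2 ratios above or below that median, and for the matched IMQ barcodes above or below their own median of -0.75. The condition and the library cannot be told apart in them. Igfbp3 stood at 6.28 in the members and 5.25 in the matched IMQ barcodes, with 243, 122 and 5.37 CPM in members, matched IMQ and UT barcodes, the last from 1 UMI. Before the median was subtracted, the log2 ratio of the members to UT was 5.50 (interval 2.95 to 10.83). Pdgfrl stood at 2.90 and 2.07, with 1170.4, 669.6 and 269 CPM. C7 stood at 3.33 and 1.42, Omd at 3.59 and 2.15, and Col1a1 at 1.93 and 1.68. Ctla2a, a cathepsin inhibitor with a near-identical copy in the genome that makes its counts uncertain, stood at 3.13 and 2.70. For these genes the matched Cthrc1-negative IMQ barcodes lay between the members and UT. S100a4 stood at -3.00 and -2.10, with 324, 616 and 4447 CPM, and Fbn1 at -2.96 and -1.59, with 37.8, 99.9 and 505 CPM. Cilp stood at -2.28 and -0.81. Mfap4 and Tgfbr3 had another pattern: Mfap4 was at 858, 1728 and 1579 CPM, so that the members were close to UT relative to the median (-0.10) and the matched IMQ barcodes above it (0.88). For Tgfbr3 these values were 0.08 and 1.76. Both comparisons share the UT barcodes.

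**Figure D5:**
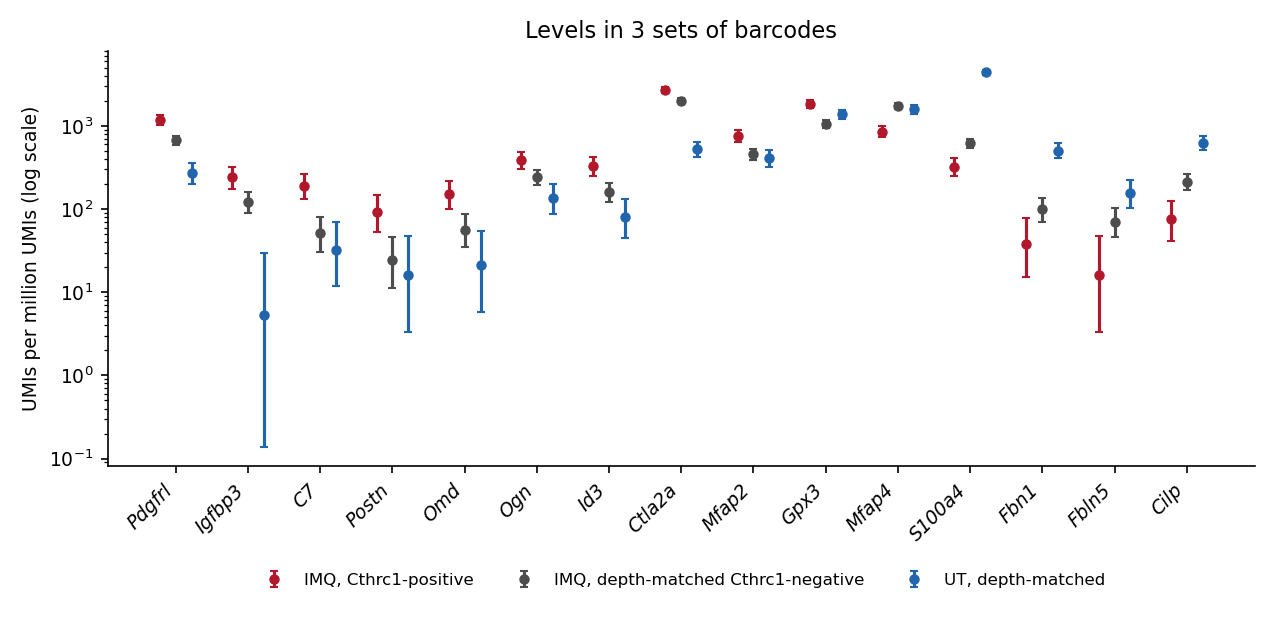
Summed level (y axis, CPM, log scale) of 15 genes in members (red), matched Cthrc1-negative IMQ barcodes (grey) and UT barcodes of matched depth (blue), with exact 95% Poisson intervals. Pdgfrl goes from 1170.4 through 669.6 to 269 CPM, whereas S100a4 goes from 324 through 616 to 4447 CPM.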

How the data were processed

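Single-cell RNA was captured by the authors with the Chromium 3' kit, version 3, and they deposited, per library, counts of UMIs per gene and barcode without normalisation. Per the file headers these counts came from Cell Ranger 3.0.0 (UT) and 3.1.0 (IMQ), on the mm10 build per the labels. Since the study counted more filtered IMQ cells than this IMQ matrix has barcodes, the study may have analysed another matrix. Of 31053 gene identifiers, 31011 were found in GENCODE M21 (GRCm38), the source of coordinates and overlaps.

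Members were IMQ barcodes with 150 to 5000 genes and 1 or more Cthrc1 UMI. Each was matched, deepest first and without replacement, to the 2 Cthrc1-negative IMQ barcodes and the 1 UT barcode nearest in UMIs without Cthrc1. UMIs were summed per set and divided by the set's total without Cthrc1. Ratios have exact conditional binomial, sums exact Poisson and shares exact binomial (Clopper-Pearson) intervals at 95%. They cover counting error only, take UMIs of 1 barcode as independent and hold no variation between mice. Genes needed 20 UMIs over both sets. With 1 library per group no test was made. A list is given by its median and its counts of genes, beside the same over all genes.

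Named genes were the 15 with the largest lower bound and the 10 with the smallest upper bound, leaving out mitochondrial and ribosomal protein genes, Gm42418 and AY036118, with the measured genes of each list. Of the 15 genes lowest without their top barcodes, 1 is not reported here. Members and lists were chosen with earlier results of these data known. The study gated out doublets in the sort and later removed those predicted by DoubletFinder. The deposited matrices hold barcodes outside its gene filter, so doublets formed in droplets may remain. No caller was used, except in an alternative that left out the 43 barcodes (6 members) ranked highest by Scrublet (scanpy 1.11.5), at 0.8% per 1000 barcodes. Of the 2 libraries, total UMIs were 1524079 (UT) and 2358303 (IMQ). Other alternatives changed the filters, the matching, the scaling, the UMI minimum and the Cthrc1 minimum. Code was tested on simulated counts, with Python 3.11.15, numpy 2.4.6, scipy 1.17.1 and pandas 2.3.3.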

Additional observations from a re-analysis of the deposited data

Results flagged for a closer look

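Cthrc1 UMIs were also found in IMQ barcodes with fewer than 150 genes, which the description above left out. There Cthrc1 stood at 124 CPM (interval 101 to 152), with 85 of 2738 barcodes positive (interval of the share 2.49% to 3.82%). Within the gene range it was higher, at 241 CPM (interval 217 to 267), and the cause of the difference was not tested. The UT library held 10 barcodes under 150 genes, none with Cthrc1, and their 4189 UMIs give an exact Poisson interval of 0 to 881 CPM, so the UT library sets no level to compare with.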

How the results depend on the processing

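No paired analysis was possible because each group had 1 library, both numbered 1, and no result came from a test between libraries. The share of IMQ barcodes with a Cthrc1 UMI was 14.2% with 200 to 5000 genes and at most 5% mitochondrial UMIs, 3.16% when 2 Cthrc1 UMIs were required and 6.72% after thinning to 300 UMIs. The share of genes at least 2-fold higher was 6.13% with 1 matched barcode per member, and 6.14% and 0.894% when at least 10 or 50 UMIs were required in place of 20, and the share at least 2-fold lower was 4.84%, 13.4% and 2.30%, and 15.3% without depth matching. The fibrillar collagen median stayed above 0, at 0.29 with at most 10% mitochondrial UMIs, 0.13 under the filter with at most 5%, 0.33 without matching, 0.15 with 1 matched barcode per member, 0.25 when matched on detected genes, 0.13 with mitochondrial, ribosomal protein, Gm42418 and AY036118 UMIs out of the totals, and 0.28 after thinning. The general fibroblast markers were at 0.28 with at most 10% mitochondrial UMIs and at 0.33 (no matching), 0.26 (detected genes), 0.14 (totals) and 0.30 (thinning) under those settings. The small leucine-rich proteoglycans were at 0.28 with at most 10% mitochondrial UMIs and 0.31 when matched on mitochondrial share as well, and changed sign to -0.27 with 2 or more Cthrc1 UMIs, where 7 genes were measured. Without matching, matricellular genes were at -0.0175 and dissociation genes at -1.41. Elastic fibre genes changed sign to 0.0641 with at most 10% mitochondrial UMIs, where 7 of the 9 genes were measured, and Cd74 to 0.12 when matched on mitochondrial share. Of the 25 genes ranked highest or lowest, 13 kept an interval on the same side of 0 under the filter with at most 5% mitochondrial UMIs, which left 81 members, and 15 when matched on mitochondrial share. Apart from these, the causes of the changes were not tested. Of the list medians under all settings, 174 of 192 stayed between the median lower and the median upper bound of the list's single genes. That band is not an interval of the list median and is wide for lists of sparse genes, so the count says little about stability. Leaving out each gene's top barcodes, an alternative chosen after seeing the data, put elastic fibre genes at -0.81 and class II genes at -1.59. At a median of 668 UMIs per member, many receptor, transcription factor and inflammatory genes had too few UMIs to be measured. Measured were 2 of 17 Wnt receptor and planar polarity genes, 4 of 15 TGF-beta, 4 of 11 interferon and 0 of 14 IL-17 and NF-kB genes. For the unmeasured genes, 0 UMIs do not show absence.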

Other observations

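The 85 Cthrc1-positive IMQ barcodes with fewer than 150 genes were not used in the ranking of genes. They were set against 170 Cthrc1-negative barcodes of matched depth in the same gene range. Their median was 288 UMIs and 114 genes, with 11.1% mitochondrial UMIs, and the median log2 ratio over genes was 0.11. Pdgfrl stood at 1.42 (interval 0.61 to 2.24), Pcolce at 1.11 (interval 0.44 to 1.79), Gpx3 at 0.81 (interval 0.22 to 1.39) and Col1a1 at 0.54 (interval 0.44 to 0.63). Mfap4 was lower there too, with 17 UMIs in the positive and 71 in the matched barcodes, a log2 ratio of -1.06 (interval -1.92 to -0.28). S100a4 stood at -0.58 (interval -2.21 to 0.81). General fibroblast markers were also higher in these shallow barcodes, with a median of 0.61 over 5 measured genes and 5 intervals above 0. Within the main gene range that median was 0.22. Whether the single genes above differ beyond this was not tested. Of the 15 genes highest without their top barcodes, 9 had 5 or more UMIs in these shallow barcodes, and 8 of the 9 were above 0, with 3 intervals above 0. Of the 15 lowest, 3 had 5 or more UMIs, and 2 of these were below 0. The share of all genes above or below 0 in these shallow barcodes was not counted. Neither count thus has a background beside the median of 0.11. These barcodes come from the same library as the members.

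The 6 UT barcodes with a Cthrc1 UMI held 667 to 2239 UMIs and 333 to 914 genes. Of these, 1 barcode held 2 Cthrc1 UMIs and 5 held 1 each, too few for a description of their other genes.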
